A study of Mus musculus with 4 samples.

Results

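The genes described here encode components of complement: C1qa, C1qb and C1qc for the chains of C1q, C2 and C3 for the proteins of the same names, Cfb for factor B, Cfd for factor D, and Serping1 for C1 inhibitor. They were chosen from genes whose signals on these arrays had already been examined, so their levels and ratios are given as a description with no test. All probe sets annotated to the 8 symbols were taken. The annotation table used here lists 10 probe sets for 6 of these genes, out of 45037 probe sets and 18193 named genes in all, and C3 and Cfd were not analysed here. Of the probe sets, 3 belong to C1qb, 3 to C2 and 1 to each of the other 4 genes.

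Complement is a set of serum and membrane proteins that mark microbes and dying cells for uptake and can open pores in their membranes. In the classical pathway C1q, built from A, B and C chains, binds antibody or other ligands and activates the proteases C1r and C1s, which cleave C4 and C2 into the enzyme that splits C3. The alternative pathway makes a C3-splitting enzyme from factor B, which factor D cleaves, and C1 inhibitor shuts down C1r and C1s. The liver makes most circulating components, whereas C1q comes mainly from macrophages and dendritic cells.

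The arrays asked how the gut of germ-free (GF) C57BL/6 mice differs once Lactobacillus NK318.1, a bacterium associated with the antibacterial lectin REG3γ, has lived in it as the only species. RNA of Peyer's patch (PP) cells and of intestinal epithelial cells (IECs) was hybridized to 4 Affymetrix arrays, 1 each for NK318.1-colonized PP, GF PP, NK318.1-colonized IECs and GF IECs. Colonized mice were sampled 2 weeks after they were given the bacterium, and all mice were kept in isolators. The RNA is described as pooled samples (n = 6), and neither the age nor the sex of the mice is in the labels. With 1 array per group there is no spread between mice, and each difference below is a ratio between 2 arrays, written as log2 of the NK318.1 over the GF signal.

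The median signal lay between 23.0 and 23.3 on the 4 arrays, and signals under 15.5 were raised to that floor. Genes above the floor on at least 1 of the 2 arrays of a tissue were taken as measured there. Where a gene has several probe sets, the one with the highest mean log2 signal represents it. The tissue labels fitted the defining markers, since Ptprc, which encodes the leukocyte protein CD45, had 5235 in NK318.1 and 5152 in GF PP, and Epcam, an epithelial adhesion molecule, had 3623 in NK318.1 and 3926 in GF IECs. Ptprc was lower in the NK318.1 than in the GF IECs, at 23.1 against 271. Xist, the RNA that coats the inactive X chromosome of female cells, had 4586 in NK318.1 and 21.7 in GF PP, and 4889 in NK318.1 and 46.7 in GF IECs. Colonization and the sex of the pooled mice cannot be told apart on these arrays. In IECs all 9 stomach markers and all 6 measured pancreatic acinar markers were at least 2-fold higher on the NK318.1 array, with median log2 ratios of 5.55 and 3.33. The 3′ to 5′ signal ratio of β-actin, which grows as RNA breaks, was 4.10 in NK318.1 and 2.73 in GF IECs, against 1.74 in NK318.1 and 1.60 in GF PP.

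The C1q genes lie side by side on chromosome 4 in the order C1qa, C1qc, C1qb, with no other protein-coding gene between them. C2 and Cfb are neighbours on chromosome 17. The 250 bases before the transcription start are shown for C1qb and C1qc, the only measured genes described here with a promoter sequence available. They are the RefSeq sequences of build GRCm38.p6, both read from the minus strand, at chr4:136886201-136886450 for C1qb and chr4:136892915-136893164 for C1qc. Capitals mark letters that match a searched motif.
C1qb: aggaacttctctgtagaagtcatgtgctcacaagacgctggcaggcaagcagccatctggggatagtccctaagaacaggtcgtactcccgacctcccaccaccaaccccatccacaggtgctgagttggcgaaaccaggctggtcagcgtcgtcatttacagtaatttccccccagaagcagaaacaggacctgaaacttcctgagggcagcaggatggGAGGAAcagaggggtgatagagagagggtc
C1qc: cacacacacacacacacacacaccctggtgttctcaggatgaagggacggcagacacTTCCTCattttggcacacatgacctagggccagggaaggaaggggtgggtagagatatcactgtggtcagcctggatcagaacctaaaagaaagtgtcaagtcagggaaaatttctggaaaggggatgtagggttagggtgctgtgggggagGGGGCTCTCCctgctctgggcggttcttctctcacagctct
On both strands, 4 motifs were searched. GAGGAA, the core bound by the myeloid factor PU.1, stands 30 to 25 bases before the C1qb start, and on the opposite strand of C1qc it stands 193 to 188 bases before the start. A κB site, the motif of NF-κB, stands 41 to 32 bases before the C1qc start as GGGGCTCTCC. The interferon-stimulated response element GAAANNGAA and the STAT site TTCNNNGAA match neither sequence. Of 32851 mouse promoter windows of this length, 23.3% held the PU.1 core, 7.25% a κB site, 7.13% the response element and 7.02% the STAT site. A match of letters is not a bound site.

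All 6 measured genes had a lower signal in NK318.1 than in GF PP, as did 57.2% of all measured genes. The largest difference was that of Serping1, at 49.1% of its GF signal, followed by Cfb at 57.6%, C1qa at 60.9%, C1qc at 64.7%, C1qb at 64.8% and C2 at 84.1%. The IECs gave no such common direction, and 47.6% of all measured genes were lower there in NK318.1 mice. In IECs Serping1 was at 213% of its GF signal, C1qc at 132% and C2 at 128%, whereas C1qa was at 53.8%, C1qb at 56.5% and Cfb at 77.3%.

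**Figure D1:**
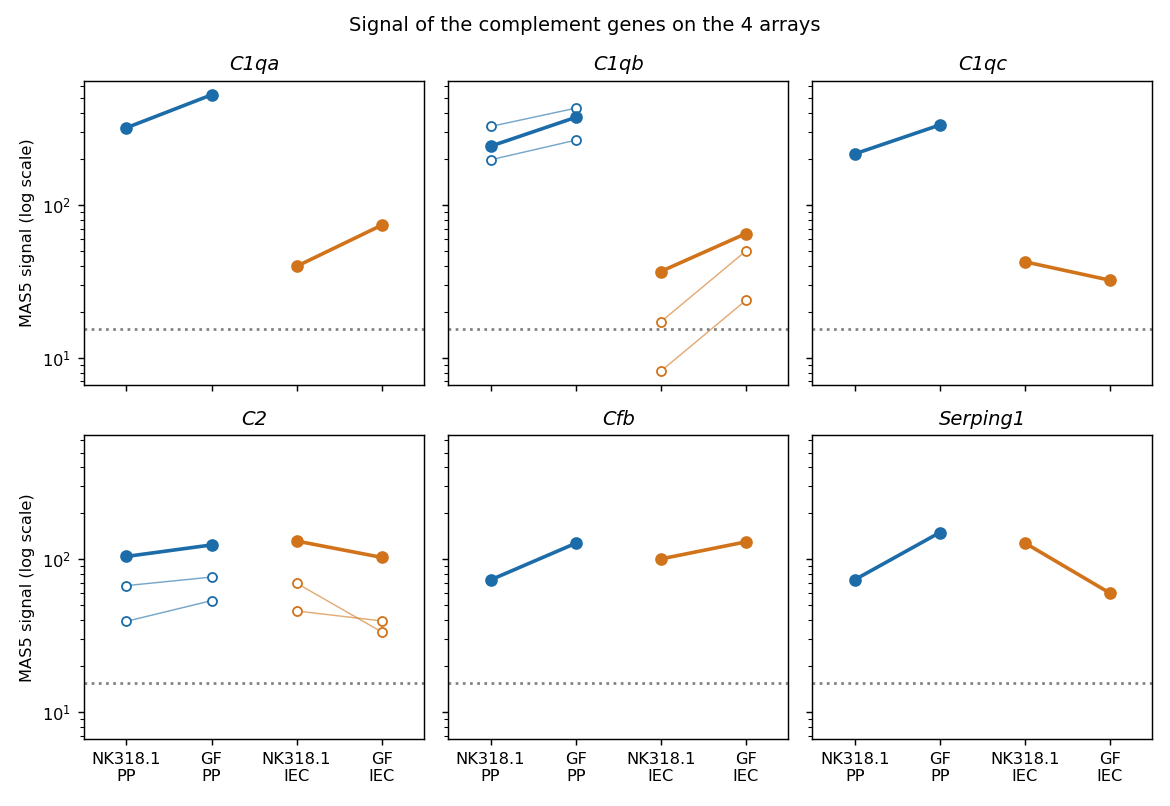
Signal of the 6 measured complement genes on the 4 arrays. The vertical axis is the MAS5 signal on a log scale, filled points are the probe set that represents the gene, open points its other probe sets, lines join the NK318.1 and GF arrays of a tissue, and the dotted line is the floor of 15.5. Every line in PP rises towards GF, while Serping1, C1qc and C2 are higher in NK318.1 than in GF IECs.

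C1qa, the A chain of C1q, had a signal of 320.2 in NK318.1 and 526 in GF PP, and of 39.7 in NK318.1 and 73.8 in GF IECs. Both NK318.1 signals were below their GF signals, with log2 ratios of −0.72 in PP and −0.89 in IECs. Within a colonization state its signal was 8.07-fold higher in PP than in IECs of NK318.1 mice and 7.13-fold higher in those of GF mice.

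The B chain gene C1qb was measured by 3 probe sets. The set that represents it (1434366_x_at) had 243 in NK318.1 and 374 in GF PP, and 36.7 in NK318.1 and 65.0 in GF IECs, with log2 ratios of −0.63 and −0.82. A second (1417063_at) had 326 in NK318.1 and 430.1 in GF PP, and 17.2 in NK318.1 and 49.9 in GF IECs, with log2 ratios of −0.40 and −1.54. The third (1437726_x_at) had 198 in NK318.1 and 266 in GF PP, a log2 ratio of −0.43, and 8.16 in NK318.1 and 23.7 in GF IECs, where the floor makes the log2 ratio −0.61 or lower. All 3 were thus lower on the NK318.1 array in both tissues, and they differed among themselves by more in IECs, where their signals were close to the floor. Probe sets ending in _x_at contain probes that can match other sequences. The signal of C1qb, like that of C1qa, was higher in PP than in IECs by each probe set, 6.61-fold in NK318.1 and 5.77-fold in GF mice by the set that represents it.

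C1qc, the C chain gene, had 216 in NK318.1 and 334 in GF PP, a log2 ratio of −0.63 that matched that of C1qb by the set that represents it. In IECs it had 42.5 in NK318.1 and 32.2 in GF mice, a log2 ratio of 0.40. This was the opposite sign to C1qa and C1qb, whose proteins assemble with C1qc into the same complex. However, 16.7% of all measured genes had a higher ratio in IECs, and that of C1qc was 0.19 with the floor raised to the 60th percentile of signal. The PP signal of C1qc exceeded the IEC signal 5.08-fold in NK318.1 and 10.4-fold in GF mice. Its single probe set allows no second reading of the epithelial ratio.

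C2, the serine protease that forms the C3-splitting enzyme together with C4, had the ratio closest to 0 in PP by the sets that represent the genes, though without less specific sets C1qb (−0.40) lay closer than C2 (−0.45). The probe set that represents it (1441912_x_at) had 104 in NK318.1 and 124 in GF PP, and 132 in NK318.1 and 103 in GF IECs, with log2 ratios of −0.25 and 0.36. The more specific set (1416051_at) had 39.3 in NK318.1 and 53.7 in GF PP, and 45.9 in NK318.1 and 39.5 in GF IECs, with log2 ratios of −0.45 and 0.22. By the third set (1457664_x_at) C2 had 67.3 in NK318.1 and 76.5 in GF PP, a log2 ratio of −0.19, and 69.8 in NK318.1 and 33.5 in GF IECs, a log2 ratio of 1.06. The 3 sets agreed in sign in each tissue but not in size in IECs. Unlike C1q, C2 had signals of like size in both tissues by the set that represents it, with a PP signal 0.793 times the IEC signal in NK318.1 and 1.21 times in GF mice. The PP signal was 0.856 and 1.36 times the IEC signal in NK318.1 and GF mice by 1416051_at. By 1457664_x_at it was 0.964 and 2.28 times.

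Cfb, the factor B gene of the alternative pathway, had 73.3 in NK318.1 and 127 in GF PP, and 101 in NK318.1 and 130.1 in GF IECs. It was lower on both NK318.1 arrays, with log2 ratios of −0.80 and −0.37. The Cfb signal of PP was 0.730 times that of IECs in NK318.1 and 0.978 times in GF mice.

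Serping1, which encodes the inhibitor of C1r and C1s, had 73.5 in NK318.1 and 150 in GF PP, and 128 in NK318.1 and 60.1 in GF IECs. Its log2 ratio was −1.03 in PP and 1.09 in IECs, the lowest and the highest of the 6 genes. The 2 tissues therefore stood in opposite order in the 2 kinds of mice, with a PP signal 0.574 times the IEC signal in NK318.1 and 2.49 times in GF mice. The log2 ratio of PP minus that of IECs was −2.12 for Serping1, −1.03 for C1qc, −0.61 for C2, −0.42 for Cfb, 0.18 for C1qa and 0.20 for C1qb. With 1 array per group these differences between tissues were not tested.

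These ratios can be set beside those of all measured genes. In PP 19 of 12736 genes (0.149%) were at least 2-fold higher and 73 (0.573%) at least 2-fold lower in NK318.1 mice, and of the 6 genes 0 were higher and 1, Serping1, was lower. At 1.5-fold 118 genes (0.927%) were higher and 349 (2.74%) lower, and of the 6 genes 0 were higher and 5, all but C2, were lower. C1qb fell short of 1.5-fold in PP with its probe sets averaged (−0.48) and without less specific ones (−0.40). In IECs 365 of 13874 genes (2.63%) were at least 2-fold higher and 213 (1.54%) at least 2-fold lower, with 1 of the 6 genes, Serping1, higher and 0 lower. At 1.5-fold 1292 (9.31%) were higher and 943 (6.8%) lower, with Serping1 higher and C1qa and C1qb lower. With quantile normalization Serping1 was at −0.99 in PP, so that 0 of the 6 genes were then at least 2-fold lower, and without less specific probe sets C1qb was at −1.54 in IECs and past the 2-fold limit. The genes were chosen with these ratios known, so nothing is read from the counts.

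For all measured genes, the middle 95% of log2 ratios spanned −0.60 to 0.41 in PP and −0.86 to 1.03 in IECs. The 6 complement genes had a median of −0.67, against −0.03 for all genes, in PP, and of −0.01, against 0.02, in IECs. A lower ratio than that of Serping1 was found for 62 genes in PP, than that of Cfb for 131, of C1qa for 183, of C1qc for 288, of C1qb for 290 and of C2 for 1932. In IECs 292 genes had a higher ratio than Serping1, and 310 had a lower ratio than C1qa. Among genes within 1.5-fold of its signal, the middle 95% spanned −0.50 to 0.31 in PP for C1qa, −0.64 to 0.36 for Cfb and −0.63 to 0.36 for Serping1. It spanned −0.54 to 0.34 for C1qb, −0.56 to 0.34 for C1qc and −0.63 to 0.35 for C2. By the sets that represent the genes, C2 lay inside these limits and the other genes lay below theirs. The other sets of C1qb, at −0.40 and −0.43, lay inside the limits given for C1qb. For Serping1 in IECs the middle 95% spanned −0.89 to 1.08, just under its ratio of 1.09. As a gauge of how far 2 readings of a gene can lie apart, the probe sets of 1 gene had a median SD of log2 ratios of 0.129 in PP (5774 genes) and 0.238 in IECs (6124 genes), which covers differences between probe sets and not between mice. The C1qb and C1qc ratios in PP lay closer together than that by the sets that represent these genes, while the other sets of C1qb lay further off.

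**Figure D2:**
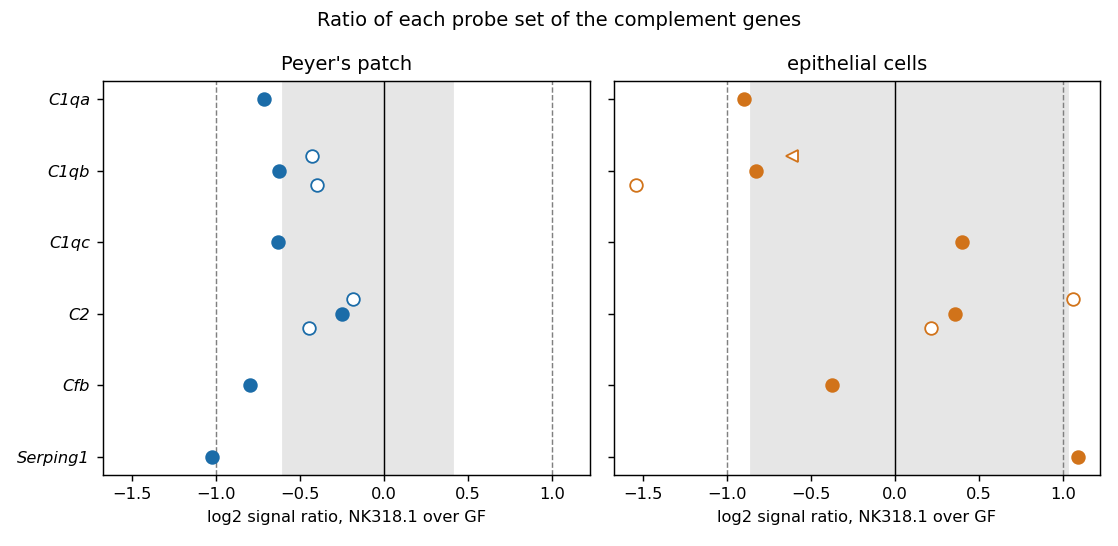
Log2 signal ratio, NK318.1 over GF, of each of the 10 probe sets of the complement genes in PP (left) and IECs (right). Filled points are the set that represents the gene, open circles its other sets, the triangle a bound set by the floor, the grey band the central 95% of all measured genes and the dashed lines 2-fold. All 10 sets lie below 0 in PP, and 5 lie below and 5 above 0 in IECs.

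The other genes of the pathway came from 7 lists of general knowledge, written with earlier results of these arrays known. Of 49 such genes, 40 had a named probe set. In PP 18 of them were measured, 12 below 0 and 6 above, with a median log2 ratio of −0.29, and 0 were at least 2-fold apart. In IECs 24 were measured, 16 above 0 and 8 below, with a median of 0.11, and 4 were at least 2-fold higher and 1 lower.

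The proteases that C1q activates had the same sign as the C1q genes in PP. C1ra, the gene of C1r, had 89.5 in NK318.1 and 136 in GF PP, a log2 ratio of −0.61, and C1s1, the gene of C1s, had 96.1 and 128 in NK318.1 and GF PP, a log2 ratio of −0.41. Their epithelial signals were 53.0 in NK318.1 and 20.9 in GF mice for C1ra, and 96.9 in NK318.1 and 21.1 in GF mice for C1s1. These are log2 ratios of 1.34 and 2.20, so both proteases and their inhibitor Serping1 were at least 2-fold higher on the NK318.1 epithelial array, while C1qa and C1qb were lower there. With the floor at the 60th percentile of signal C1ra was at 0.51 and no longer 2-fold higher, since its GF signal lies under that floor. The 6 measured genes of the classical pathway had a median of −0.62 in PP and 0.38 in IECs.

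Among soluble regulators, Cfi, the protease that cuts up C3b and C4b, had 20.3 in NK318.1 and 39.9 in GF PP, and 123 in NK318.1 and 42.4 in GF IECs. Its log2 ratios of −0.97 and 1.53 had the same signs as those of Serping1, although the PP ratio was −0.10 with the floor at the 60th percentile. Clu, which encodes clusterin, an inhibitor of the membrane pore, had 1962 in NK318.1 and 2406 in GF PP, and 1387 in NK318.1 and 89.1 in GF IECs. Its log2 ratio was −0.29 in PP and 3.96 in IECs, where its other 3 probe sets gave 3.69 to 5.55. Vtn, the gene of vitronectin, was under the floor in NK318.1 PP (13.9, against 28.9 in GF), which puts its log2 ratio at −0.90 or lower, and C4bp, a cofactor of Cfi, was lowest of this list in IECs, with a log2 ratio of −0.40 or lower. The list had a median of −0.94 over 4 measured genes in PP and of 1.09 over 5 in IECs. These medians of few genes moved with the floor, to −0.29 in PP at the 60th percentile and to −0.26 in PP and 0.31 in IECs without a floor.

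Fcna, a ficolin that binds microbial sugars, had 226 in NK318.1 and 166 in GF PP, a log2 ratio of 0.45, and 36.4 in NK318.1 and 27.9 in GF IECs, a log2 ratio of 0.38. The PP ratio of Fcna had the opposite sign to those of the C1q genes. Of the 9 lectin pathway genes, 2 were measured in PP by the sets that represent them, with Masp1, a lectin pathway protease, at −0.26, and 5 in IECs, with medians of 0.09 and 0.16. Colec11, another recognition gene of this pathway, was under the floor by the set that represents it, and its second set had 16.5 in NK318.1 and 27.2 in GF PP, a log2 ratio of −0.72. In IECs Masp1 was highest at 0.77, with −0.37 or lower from another probe set, and the ficolin gene Fcnb lowest at −0.36.

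Cfp, which encodes properdin, the stabilizer of the alternative pathway enzyme that holds factor B, had 186 in NK318.1 and 122 in GF PP, a log2 ratio of 0.60, while its second probe set gave −0.31. In IECs the Cfp sets gave 0.18 and 0.33. Terminal pathway genes, which build the membrane pore, were mostly near the floor. C6 had 21.6 in NK318.1 and 34.9 in GF PP (log2 ratio −0.69), and 18.6 in NK318.1 and 23.9 in GF IECs (−0.36), and was the lowest of the list in both tissues. The highest were Hc, the gene of C5, at 0.04 in PP, where its GF signal was under the floor, and C8b at 0.29 in IECs. The terminal list had medians of −0.32 over 2 genes in PP and −0.14 over 5 in IECs, and the PP median was 0.02 with quantile normalization over the 4 arrays and −0.01 with the floor at the 25th percentile.

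Membrane regulators protect host cells from complement. Cd55, which takes apart the C3-splitting enzymes, was lowest of them, with 428 in NK318.1 and 519.9 in GF PP (−0.28), and 32.4 in NK318.1 and 56.5 in GF IECs (−0.80). Cd59a, which blocks the pore, was highest, with 59.0 in NK318.1 and 39.6 in GF PP (0.58), and 71.3 in NK318.1 and 37.0 in GF IECs (0.95). The list had a median of −0.07 over 3 genes in PP and 0.24 over 4 in IECs.

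Of the receptors, Itgb2, the β2 integrin chain shared by complement receptors 3 and 4, was at least 2-fold lower in IECs, with 24.5 in NK318.1 and 61.5 in GF mice (log2 ratio −1.33), against 1549 in NK318.1 and 1458 in GF PP (0.09). With the floor at the 60th percentile its IEC ratio was −0.72, short of 2-fold. Cd93, a membrane protein first described as a C1q receptor, was lowest in PP at −0.66, with −1.20 from another set, and C3ar1, the receptor of C3a, was highest at 0.19 or more in PP and 0.03 in IECs. Receptor medians were −0.30 over 5 genes in PP and −0.50 over 3 in IECs, but 0.05 in PP and 0.09 in IECs without a floor. C5ar1, Itgam and Vsig4 were under the floor on all 4 arrays.

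**Figure D3:**
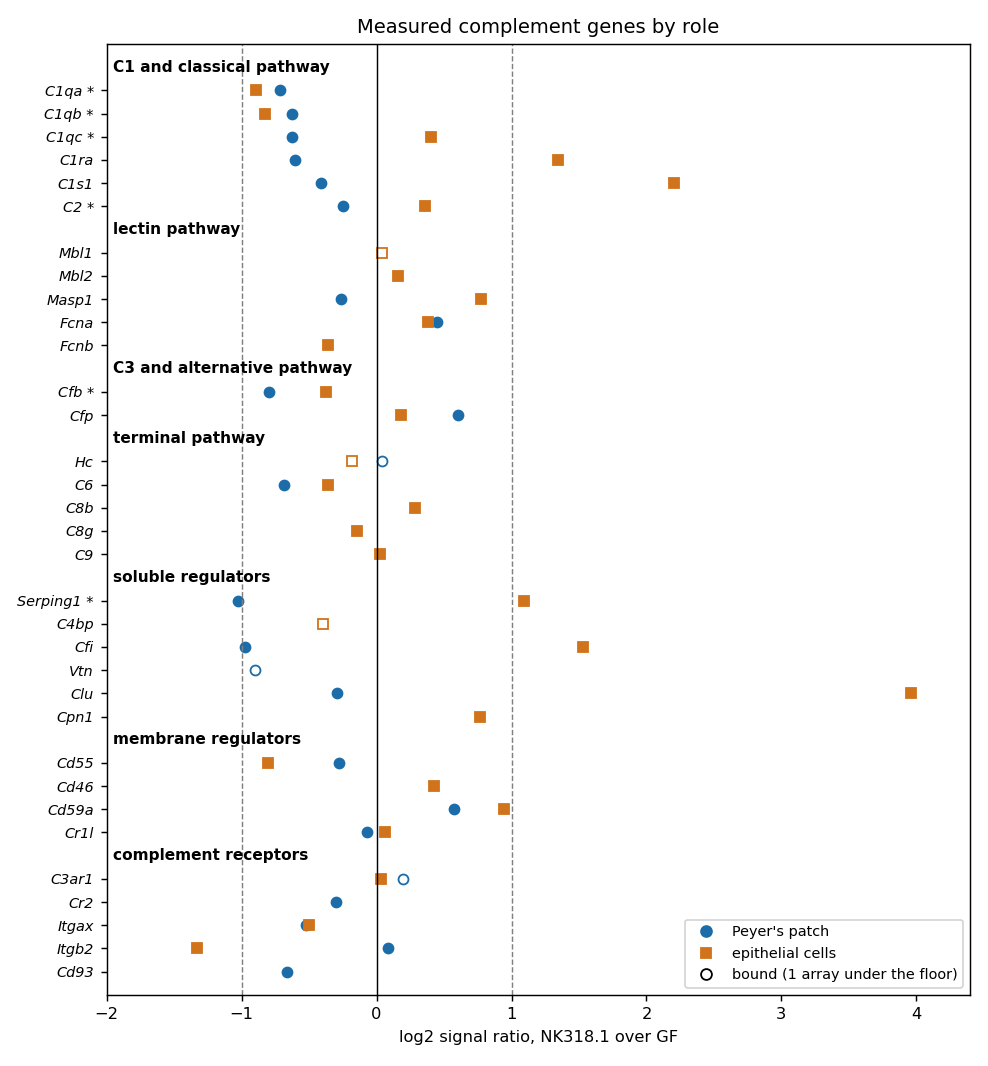
Log2 signal ratio, NK318.1 over GF, of every measured gene of the complement lists, grouped by role. Circles are PP, squares IECs, open symbols bounds set by the floor, dashed lines 2-fold, and asterisks the 6 genes described first. C1ra, C1s1, Serping1, Cfi and Clu lie above 2-fold in IECs and below 0 in PP.

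Markers of other cell types and responses were read beside the complement genes, since C1q is a product of macrophages. In PP 18 of 19 named macrophage markers were measured, 15 below 0 and 3 above, with a median log2 ratio of −0.34 and 0 at least 2-fold apart. Their summed signal was 8592 in NK318.1 and 10882 in GF PP. Apoe, an apolipoprotein of macrophages (−0.85), and Cd14, a co-receptor for lipopolysaccharide (−0.75), were lowest, and the scavenger receptor gene Marco (0.40) and the Fc receptor gene Fcgr1 (0.29) highest. Csf1r, the macrophage growth factor receptor, had 1557 in NK318.1 and 1835 in GF PP, and Adgre1, the gene of F4/80, had 58.6 in NK318.1 and 85.5 in GF PP. In RNA of mixed cells, fewer cells of a type and less RNA per cell cannot be told apart.

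In IECs 15 macrophage markers were measured, 9 below 0 and 6 above, with a median of −0.20, and 3 were at least 2-fold lower. Their summed signal was 1459 in NK318.1 and 3259 in GF IECs. Much of this sum came from Lyz2 (298 in NK318.1, 1265 in GF IECs) and Maf (453 in NK318.1, 1209 in GF IECs). The myeloid lysozyme gene Lyz2 had a log2 ratio of −2.09, Ms4a7 −2.05 and the transcription factor Maf −1.41, while Mertk, a receptor for dying cells, was highest at 0.39 and Cd68 next at 0.32. Csf1r had 82.1 in NK318.1 and 94.6 in GF IECs, and Adgre1 had 52.7 and 47.1 in NK318.1 and GF IECs. C1qa and C1qb had the sign of the 9 markers below 0, and C1qc that of the 6 above, so either sign is shared with part of the list. Mertk had more signal in IECs (204 in NK318.1, 155 in GF mice) than in PP (50.2 in NK318.1, 64.8 in GF mice). Maf did so in GF mice (1209 in IECs, 611 in PP) but not in NK318.1 mice (453 in IECs, 607 in PP). The part of macrophage content in these ratios was not tested.

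Dendritic cell markers had medians of −0.30 over 8 genes in PP, with Flt3 (−1.09) and Batf3 (−0.74) lowest, Itgae (0.01) highest and Xcr1 next at −0.17 or lower, and −0.11 over 6 genes in IECs. All 26 measured interferon-stimulated genes were below 0 in PP, 12 of them at least 2-fold lower, with a median of −0.85 and a summed signal of 6607 in NK318.1 and 9991 in GF PP. Ifit3 (−3.17) and Ifit1 (−2.84), antiviral genes, were lowest, and the immunoproteasome genes Psmb8 (−0.21) and Psmb9 (−0.12) highest. In IECs 14 of 26 were below 0 and 12 above, with a median of −0.18, from Cmpk2 (−1.67) and Rsad2 (−1.47) to Bst2 (0.41) and Psmb9 (0.69). Their part in the complement ratios was not tested.

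Fibroblasts make C1r, C1s and C1 inhibitor in many tissues. Fibroblast and matrix markers had medians of opposite sign in the 2 tissues. So had the ratios of Serping1, C1ra, C1s1 and Cfi, and also those of C1qc, C2 and Clu, among others. Medians of opposite sign were also found for markers of follicular dendritic cells (−0.24 in PP, 0.35 in IECs) and of T cells (0.21 in PP, −0.51 in IECs). The same was true of pancreatic acinar markers (−0.21 in PP, 3.33 in IECs). All 10 fibroblast and matrix markers were measured in both tissues. In PP 9 were below 0 and 2 at least 2-fold lower, with a median of −0.23 and a summed signal of 808 in NK318.1 and 1074 in GF mice. Mgp (−1.78), a matrix protein, and Fn1 (−1.02), fibronectin, were lowest there, and Pdgfrb (0.02) and Col1a1 (−0.01) highest. In IECs 8 were above 0 and 7 at least 2-fold higher, with a median of 1.37 and a summed signal of 1863 in NK318.1 and 595 in GF mice. The matrix genes Dpt (2.66) and Dcn (1.94) were highest there, and Pdgfrb (−0.49) and the collagen gene Col1a1 (−0.37, a bound) lowest. With all probe sets of a gene averaged the IEC median was 0.46, and with the floor at the 60th percentile the PP median was −0.83. The part of fibroblast RNA in the complement ratios was not tested.

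The NK318.1 epithelial array also stood apart in other lists. Its stomach markers ran from Psca (2.88) and Cldn18 (at least 3.0) to Gkn1 (at least 8.45) and Gkn2 (at least 9.33), with a summed signal of 33118 in NK318.1 and 416 in GF IECs. Acinar markers ran from Cela1 (2.15) and Prss2 (2.59) to Cpa1 (3.54) and Cel (3.79), with sums of 9005 in NK318.1 and 1149 in GF IECs. Enterocyte markers had a median of −0.46, 9 of 10 below 0, with Apoa1 (−0.77) and Vil1 (−0.65) lowest and Alpi (0.44) and Epcam (−0.12) highest. T cell markers had a median of −0.51, with Cd3g (−3.62 or lower) and Cd8a (−2.15) lowest and Cd3e (0.24) and Cd28 (0.10) highest, against 0.21 in PP. Each epithelial ratio of a complement gene compares these arrays, and the part of stomach, pancreatic, stromal or lymphoid RNA and of RNA breakage in it was not tested.

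**Figure D4:**
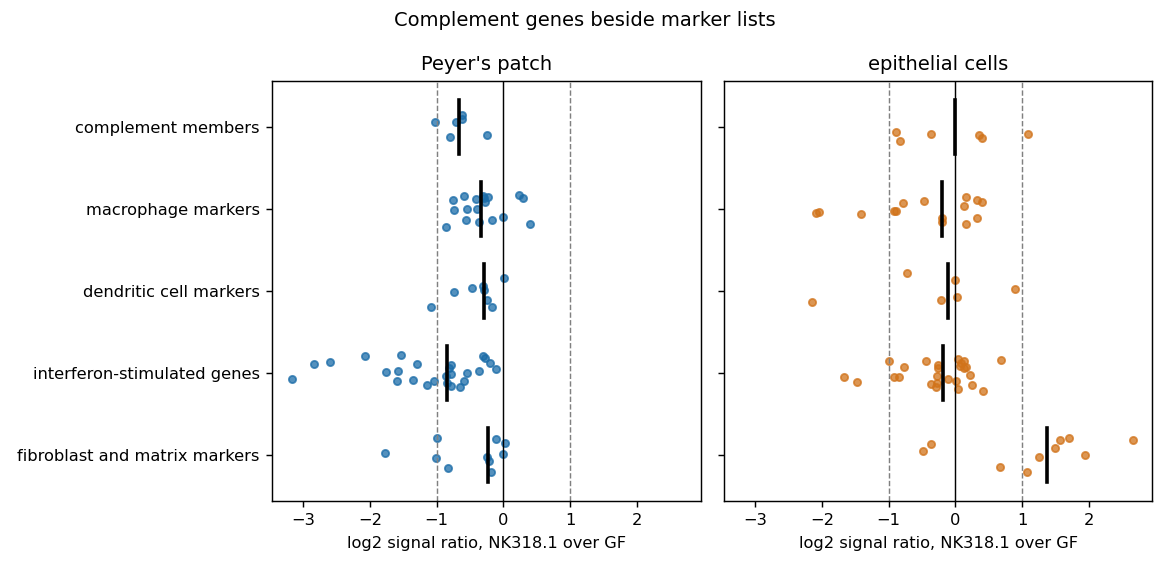
Log2 signal ratio, NK318.1 over GF, of the 6 measured complement genes and of the measured genes of 4 marker lists in PP (left) and IECs (right). Each point is a gene, thick bars are medians and dashed lines 2-fold. The complement genes have a median of −0.67 in PP, between those of the interferon-stimulated genes (−0.85) and the macrophage markers (−0.34), and spread to both sides of 0 in IECs.

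The genes whose signals over the 4 arrays were most like those of each complement gene were found by the Euclidean distance between log2 profiles, each centred on its own mean, over 14350 genes. With 4 arrays the pattern is mostly that of the tissues, and the distances are a description. C1qa was nearest to Sp100 (0.16), Herc6 (0.20) and C1qb (0.31), and C1qb to Herc6 (0.20), Trim12c (0.25) and Cblb (0.27). C1qa was 6th in order of distance from C1qb, whereas C1qc was 280th from C1qa and 386th from C1qb. C1qc lay nearest to Cd68 (0.17), Fam117a (0.24) and Akap12 (0.26). C2 was nearest to N6amt1 (0.02), Cbx5 (0.03) and Ccne2 (0.04), and its chromosomal neighbour Cfb to Cxcl16 (0.23), 9330133O14Rik (0.24) and Smn1 (0.24). Serping1 was nearest to Fn1, at a distance of 0.06, and then to Hemgn (0.21) and Mmp2 (0.26). Fn1 had 52.9 in NK318.1 and 107 in GF PP, and 95.5 in NK318.1 and 45.2 in GF IECs, so that its log2 ratios of −1.02 and 1.08 stood beside −1.03 and 1.09 for Serping1.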

How the data were processed

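Each array came as MAS5 signals, which the authors deposited as 1 linear intensity for every probe set. For MAS5, neither version nor settings were given in the sources used here. The study's methods state that limma was used to find changed genes. As limma needs replicates, it was not run here. The intensity was taken as deposited for the 4 arrays. Control probe sets (64) were left out, 9160 probe sets without a gene and 932 naming several genes were not used for genes, and a C4 probe set was among the last. As floor served the 40th percentile of an array's intensity, as a median of the 4. A ratio with 1 array under the floor is a bound, and none is given where both are under it. The fold limit of 2 is that of the study's methods, which joined it with a limit on the adjusted p-value. That second condition was not applied here.

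The complement genes, the other lists and the alternatives were chosen with earlier results of these arrays known. Named are all probe sets of the complement genes, other complement genes at least 2-fold apart in either tissue or highest or lowest of their list, the 2 highest and 2 lowest genes of a marker list given beside a result, the defining markers and the 3 nearest genes by profile. Second probe sets of other genes, Fcna in IECs, Vtn, Cr2, C5ar1, Itgam, Vsig4 and Maf fall outside this rule and were named with their values known.

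Values were recomputed with array medians centred, with quantile normalization over all arrays or within a tissue, with the floor at the 25th or the 60th percentile or without one, with all probe sets of a gene averaged, without less specific probe sets, and with limits of 1.5-fold and 4-fold. The procedure was tested on simulated data. Python 3.11.15, numpy 2.4.6, pandas 2.3.3 and matplotlib 3.10.9 were used.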

Additional observations from a re-analysis of the deposited data

Results flagged for a closer look

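Serping1, the gene of C1 inhibitor, stood on opposite sides in the 2 tissues. Its signal was 73.5 in NK318.1 and 150 in GF PP, and 128 in NK318.1 and 60.1 in GF IECs, so the log2 ratio of NK318.1 over GF was −1.03 and 1.09, a difference of −2.12 between the tissues. It was the only 1 of the 6 measured complement genes at least 2-fold apart in both tissues, and it was picked out because the ratios point in opposite directions. The difference was not tested, since each group had 1 array. Fibroblast and matrix markers had median log2 ratios of −0.23 in PP and 1.37 in IECs, and their part in the Serping1 signal was not tested.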

How the results depend on the processing

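The sign of each log2 ratio of the 6 measured complement genes was the same in 96 of 96 alternatives, 48 in each tissue. Many of these alternatives could not change a ratio. The sets that represent the genes lay above the floor on all 4 arrays, so a lower floor or none left their ratios as they were. A choice among probe sets could not move a gene with 1 set. Both limits hold for the values counted next. Of 112 alternative values for these genes and their medians, 107 stayed within the spread between probe sets of 1 gene. C1qb moved further, to −0.48 in PP and −1.30 in IECs with the mean over its probe sets, and to −0.40 and −1.54 without less specific probe sets, where C2 moved to −0.45 in PP. These settings replace the probe set that stands for the gene. The number of complement genes at least 2-fold lower in PP, 1 as reported, was 0 under both quantile normalizations, where Serping1 reached −0.99, 5 at 1.5-fold and 0 at 4-fold. The 5 include C1qb, which was short of 1.5-fold at −0.48 and −0.40. The number at least 2-fold lower in IECs, 0 as reported, was 1 with the mean over probe sets and 1 without less specific ones, in both cases C1qb, and 2 at 1.5-fold. The number at least 2-fold higher in IECs, 1 as reported, was 0 at 4-fold. Over all genes, in PP 118 were higher at 1.5-fold and 4 at 4-fold, and 349 were lower at 1.5-fold and 8 at 4-fold. In IECs 1292 were higher at 1.5-fold and 65 at 4-fold, and 943 were lower at 1.5-fold and 29 at 4-fold. Without a floor 29 genes were at least 2-fold higher in PP, and with the mean over probe sets 235 were at least 2-fold higher in IECs. Among the other genes and lists, 502 of 552 alternative values stayed within that spread. The other named complement genes had the same sign in 221 of 221 alternatives that gave a value. Masp1 gave none in either tissue with probe sets averaged or without less specific ones, and another of its sets had the opposite sign in IECs (−0.37 or lower). So had the second set of Cfp in PP (−0.31). Of 331 list medians, 16 changed sign. In PP these were, among others, the terminal pathway (0.02 with quantile normalization over 4 arrays), the receptors (0.05 without a floor), and, when the floor was raised to the 60th percentile from the 40th, the acinar markers (0.25, before −0.21) and the stomach markers (−0.32, before 0.01) as well as the cytokine list (0.06 without a floor). In IECs they were the receptors (0.09) and hepatocyte markers (0.13) with a lower floor or none, and the macrophage markers (0.01) with probe sets averaged. The median of the 6 complement genes in IECs was 0.01 with probe sets averaged, against −0.01 as reported. The 60th-percentile floor or another choice of probe set gave no value for some low genes, among them Masp1, C6 and Hc.

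No paired analysis was possible because there was only 1 array for each group, and no replicate was left out for the same reason. Pooling removes the spread between mice from the data, so none of these ratios has an error. Signals near the floor, as those of C1q in IECs, are limited by background. C3 and Cfd were not analysed here.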

Other observations

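Cytokine and acute phase genes, many of which respond to the same inflammatory signals as Cfb and C3, had list medians close to the median of all genes. In PP 11 of 18 were measured, with a median log2 ratio of −0.10 and 0 at least 2-fold apart, and they ran from Tnfaip3 (−0.43), an inhibitor of NF-κB signaling, and Il1b (−0.42) to Saa3 (0.23) and Tnf (0.27). In IECs 14 were measured, with a median of −0.07 and 1 at least 2-fold lower, from Tnfaip3 (−1.53, signal 111 in NK318.1 and 321 in GF) and Cxcl2 (−0.62) to the feedback inhibitor Socs3 (0.25) and the serum amyloid gene Saa3 (0.98, signal 158 in NK318.1 and 80.1 in GF).

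Follicular dendritic cells hold complement-coated antigen on the receptors encoded by Cr2. Cr2 had 382 in NK318.1 and 470.4 in GF PP, a log2 ratio of −0.30, and was under the floor in both epithelial arrays. The 5 measured markers of these cells had a median of −0.24 in PP, with Coch (−0.96) and Cxcl13 (−0.30), a chemokine that draws B cells, lowest and Mfge8 (−0.22) and Madcam1 (0.09) highest. In IECs 4 were measured, with a median of 0.35. B cell markers had medians of −0.11 in PP and −0.34 in IECs.

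Adipocytes are a known source of Cfd and hepatocytes of most complement. Adipoq was under the floor on all 4 arrays. Adipocyte markers had medians of 0.02 over 3 genes in PP and 0.32 over 5 in IECs, where Fabp4 (1.21) and Pparg (1.17) were at least 2-fold higher and Lipe (−0.59) and Cidec (−0.21) lowest. In PP they ran from Lipe (−0.06) to Fabp4 (0.22). Of the hepatocyte markers 1 was measured in PP and 3 in IECs, with a median of −0.16. In IECs Ttr, the transthyretin gene, was at 1.05 and Apob, an apolipoprotein gene of liver and enterocytes, at −1.07, both at least 2-fold apart, and Alb had 21.3 in NK318.1 and 23.7 in GF IECs.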
